A study of Homo sapiens with 22 samples.

Results

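The oligos described here are 319 sequence tags of a pooled luciferase reporter library that were strongly transcribed in A549 cells and, at a lower level, in H520 cells. A549 is a human lung adenocarcinoma line and H520 a human lung squamous cell carcinoma line. Activity was the log2 ratio of a tag's RNA level to its level in the input of construct DNA for H520, each as the deposited TPM value (the count of a tag scaled to the total of its library) plus 0.5, minus the median of the library, so that 0 is the typical tag. Tags were eligible with at least 100 counts in both inputs. A member had a mean activity over the 10 A549 RNA libraries (called a) of at least 3 and under 6, a mean over the 10 H520 RNA libraries (h) of at least 0.5, and a minus h of at least 1. The 319 members were drawn from 211385 eligible tags, of 238017 tags listed in any library. The members were chosen by these means, so the levels in each line and the difference between the lines are given as a description, without a test.

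The A549 cells received 10 µM benzo(a)pyrene (BaP) for 18 h or the vehicle DMSO, and the H520 cells received 10 µM BaP for 42 h or DMSO. Each of the 4 combinations had 5 transfections, numbered 1 to 5 in the labels, and each line had 1 input library of construct DNA. All RNA libraries came from transfected cells, and neither an untransfected control nor a molecular identifier is described. RNA libraries held 177592385 to 371435558 counts. Nothing in the labels says that the transfections were separate cultures, so p-values measure the spread between these libraries. The files hold reporter tags only, so the identity of the lines could not be checked against marker genes.

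In a massively parallel reporter assay, each cloned fragment drives transcription of a reporter gene, and a short tag in the transcript tells which plasmid the RNA came from. The ratio of RNA to plasmid DNA of a tag then reads the activity of its plasmid. A reporter of this kind can be strong in a line of 1 lineage and weak in another where the transcription factors that bind its fragment differ. BaP, formed when tobacco and other organic matter burn, binds the aryl hydrocarbon receptor, a transcription factor that then acts on xenobiotic response elements. No table tying tags to cloned fragments or alleles was used here, so several members may mark the same fragment and members are not independent of each other.

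A deposited tag has 15 bases, a variable stretch of 12 followed by a constant stretch of 3. The tags were designed and are not assigned to a place in a genome. All are listed on the minus strand, and the sources used here do not say whether the printed run or its complement lies in the transcript. In the runs below, capitals mark the 12 variable bases. The first set shows the 5 members of highest a with at least 500 counts in both inputs, since they mark the top of the range.
Highest in A549, rank 1: CCGCCGATACTTggc
Highest in A549, rank 2: CTTCGTTACTCGggc
Highest in A549, rank 3: TTACCGCCAAAGggc
Highest in A549, rank 4: AGATTCGGTCGGggc
Highest in A549, rank 5: CCGGTAGCATCTggc
The next 5 had the largest a minus h among members with at least that many input counts, so they mark the widest gap between the lines.
Largest line difference, rank 1: TACGAATCCGGTggc
Largest line difference, rank 2: TGGTATATCTTGggc
Largest line difference, rank 3: CCCAACCCGATGggc
Largest line difference, rank 4: GCATTAGTAGGGggc
Largest line difference, rank 5: GCCCAACTTTAGggc
At the other end stand the 3 members of smallest a minus h, which are nearest to reporters of equal activity in both lines.
Smallest line difference, rank 1: GTTCGAATGAACggc
Smallest line difference, rank 2: GAACGACGTTCAggc
Smallest line difference, rank 3: GGAACTTAACTTggc
The 3 members with the most input counts are the most deeply read.
Most input counts, rank 1: AGGCCGTTCGGCggc
Most input counts, rank 2: ATAGCGTCAATTggc
Most input counts, rank 3: CTACTCCGCAATggc
A last tag is shown because its course over the A549 libraries was unlike that of every other member.
Steady in A549: AGAACGACGGTAggc

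On average the members stood far above the pool in A549 and about 3-fold above it in H520. Their mean activity was 4.24 ± 0.89 in A549 with BaP and 4.11 ± 0.63 in A549 with DMSO, against 1.63 ± 0.14 in H520 with BaP and 1.68 ± 0.16 in H520 with DMSO (log2, SD, n = 5 each). On the linear scale these means are 18.8, 17.2, 3.09 and 3.20 times the median of the library. As a share of all counts, the members took 3.84% ± 1.93 in A549 with BaP and 3.34% ± 1.32 in A549 with DMSO, against 0.586% ± 0.065 in H520 with BaP and 0.608% ± 0.074 in H520 with DMSO (SD, n = 5 each). They held 0.293% of the A549 input (Wilson 95% interval 0.2927% to 0.2938%) and 0.165% of the H520 input (0.1647% to 0.1657%). Intervals cover counting error only.

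Single members were well read. They had 1013 to 266579 counts in an A549 library and 198 to 36885 in an H520 library, with medians of 19234 and 3388. The highest level was 924 TPM in A549 and 111 TPM in H520, and both were of AGGCCGTTCGGCggc, the member with the most input counts. Its TPM in A549 was 208, 277, 709, 624 and 924 with BaP and 517, 244, 310, 535 and 762 with DMSO, in transfections 1 to 5. Its TPM in H520 was 70.1, 89.9, 97.6, 101.6 and 78.3 with BaP and 72.8, 88.2, 95.8, 111.2 and 77.7 with DMSO. The BaP and DMSO libraries overlapped in both lines, and every A549 library lay above every H520 library. Between its A549 libraries the tag differed by up to 4.92-fold in activity, which unlike TPM is set against the library median.

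Within the limits of the rule the members spread over the whole range in A549. Their a had a median of 4.15, and 89 lay from 3 to 3.5, 60 from 3.5 to 4, 54 from 4 to 4.5, 54 from 4.5 to 5, 41 from 5 to 5.5 and 21 from 5.5 to 6. In H520 they crowded at the low end. Their h had a median of 1.43, and 53 lay from 0.5 to 1, 112 from 1 to 1.5, 54 from 1.5 to 2, 51 from 2 to 2.5, 33 from 2.5 to 3 and 16 from 3 to 4. The difference between the lines was narrower than either level. Of the 319 members, 135 had an a minus h from 2 to 2.5 and 106 one from 2.5 to 3. There were 5 under 1.5, 8 from 3.5 to 4 and 3 from 4 to 4.5. Across the 319 members a and h correlated at 0.80 (Pearson's r) and 0.80 (Spearman's rho), a description of points that share an input denominator, the libraries and the limits of the rule.

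The member of highest a, CCGCCGATACTTggc, had an a of 5.999 and an h of 3.495, and CTTCGTTACTCGggc an a of 5.994 and an h of 3.498. Among members with at least 500 counts in both inputs these also led in H520, while the highest h of any member, 3.88, was that of GAACTTCGCCGGggc, with 259 counts in the H520 input. The activity of CCGCCGATACTTggc in A549 was 5.14, 5.25, 6.16, 6.63 and 7.15 with BaP and 6.43, 5.09, 4.99, 6.31 and 6.84 with DMSO. In H520 it was 2.94, 3.58, 3.75, 3.68 and 3.26 with BaP and 3.20, 3.57, 3.75, 3.88 and 3.32 with DMSO. The lowest A549 library thus stood above the highest H520 library, while BaP and DMSO overlapped in each line. The rest of the 5 highest in A549 were TTACCGCCAAAGggc with an a of 5.91, AGATTCGGTCGGggc with 5.88 and CCGGTAGCATCTggc with 5.77, and their h ran from 2.92 to 3.21. High h did not need the highest a. CCATCTACGAGAggc reached an h of 3.46 with an a of 4.84, and GGATTGCCCGTTggc one of 3.35 with an a of 5.02.

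The largest line difference belonged to TACGAATCCGGTggc, with an a of 5.32, an h of 1.12 and a difference of 4.20. Its TPM in A549 was 76.0, 82.7, 130.3, 183.5 and 190.2 with BaP and 169.6, 65.4, 59.6, 154.6 and 179.5 with DMSO. Its TPM in H520 was 5.6, 6.7, 6.6, 6.9 and 6.2 with BaP and 5.6, 7.0, 7.1, 7.9 and 6.4 with DMSO. The H520 libraries differed little among themselves and all lay far under the A549 ones. TGGTATATCTTGggc (4.19), CCCAACCCGATGggc (4.14), GCATTAGTAGGGggc (3.97) and GCCCAACTTTAGggc (3.92) followed by a minus h, and their h of 1.06 to 1.26 was close to that of the first.

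At the small end, GTTCGAATGAACggc had an a of 4.32, an h of 3.32 and a difference of 1.01. Its activity in A549 was 3.06, 3.67, 4.97, 4.78 and 5.36 with BaP and 4.15, 3.59, 3.95, 4.60 and 5.10 with DMSO. Its activity in H520 was 3.02, 3.22, 3.58, 3.42 and 3.21 with BaP and 3.08, 3.28, 3.50, 3.53 and 3.33 with DMSO. Here the lines overlapped, since the lowest A549 library, BaP transfection 1, lay within the H520 range, and the line difference of this tag rests on the other A549 libraries. The difference was 1.20 for GAACGACGTTCAggc and 1.31 for GGAACTTAACTTggc, and both had their lowest A549 value, 3.07 and 3.01, in the same library.

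The A549 level of nearly all members moved together from library to library, over a range close in size to the line difference itself. The mean activity of the members in A549 was 3.11, 3.49, 4.68, 4.75 and 5.16 in BaP transfections 1 to 5 and 4.29, 3.33, 3.59, 4.46 and 4.86 in DMSO transfections 1 to 5. These means span 2.04 log2 units, or 4.13-fold. BaP 1, BaP 2, DMSO 2 and DMSO 3 lay at 3.11 to 3.59 and the other 6 libraries at 4.29 to 5.16. The low libraries thus held both treatments. Both libraries of transfection 2 were low, and both of transfections 4 and 5 were among the others. Transfections 1 and 3 were split, with BaP low in 1 and DMSO low in 3. The part of the transfection number in this was not tested. A single component carried 97.4% of the variation of the 319 members over the A549 libraries about their own means. Of the 319 members, 318 followed the mean course of the rest with a Pearson r over 0.9 over the 10 libraries, with a median r of 0.99. This r is a description, and its points share all 10 libraries. After that course was removed, the median SD of a member was 0.10.

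Measured as an SD over the 10 A549 libraries, the spread of a member had a median of 0.75, against 0.10 over all eligible tags. The SD was 0.5 or more for 317 of 319 members, where 0.493% of all eligible tags reached it. From its lowest to its highest A549 library a member changed in activity by a median of 4.33-fold. Of the members, 5% were under 3.22-fold and 5% over 5.22-fold. The largest swing in activity was 5.71-fold, in ATATAGATACCGggc. It stood at 61.9, 92.6, 269.1, 251.4 and 321.4 TPM in A549 with BaP and at 176.5, 76.9, 131.1, 228.7 and 256.8 TPM in A549 with DMSO. Its SD over the A549 libraries was 0.89, as was that of CATATAGATAGGggc, and that of AAGATTATCTAGggc was 0.88. The BaP libraries of this tag thus held both its lowest and its highest value.

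The highest A549 library was BaP 5 for 314 of 319 members, where this library was the highest for 8.40% of all eligible tags. The lowest was BaP 1 for 277 members (10.1% of all eligible tags), DMSO 3 for 35 (25.4%) and DMSO 2 for 6. The 35 members that were lowest in DMSO 3 had a median a of 5.15 and a median h of 1.92, against 3.97 and 1.40 for the 277 that were lowest in BaP 1. Their mean activities in DMSO 3 and BaP 1 were 3.93 and 4.11, where those of the 277 were 3.54 and 2.97. These subsets were formed after the values were seen and have no test. Of the 5 members with the largest line difference, 4 were lowest in DMSO 3 and TGGTATATCTTGggc in BaP 1, and the 3 with the smallest were lowest in BaP 1.

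A single member did not take part in this swing. AGAACGACGGTAggc, named after its values were seen, had 10.8, 10.7, 8.9, 9.0 and 8.3 TPM in A549 with BaP and 10.5, 9.3, 9.8, 9.6 and 9.1 TPM with DMSO. Its TPM in H520 was 4.2, 4.1, 4.4, 4.3 and 4.4 with BaP and 4.4, 4.1, 4.7, 4.2 and 3.9 with DMSO. Read as activity, which unlike TPM is set against the library median, its A549 libraries differed by 1.18-fold at most, with an SD of 0.09. Its r with the mean course was -0.41. Its a of 3.45 and h of 2.23 rest on 397 counts in the A549 input and 153 in the H520 input, so the ratio carries more counting error than that of most members. The members of smallest SD among those with at least 500 counts in both inputs were CCGTAATTAATCggc at 0.43, GCATTACGTTAGggc at 0.54 and TACGGCGTTCCGggc at 0.55, and their r with the mean course was 0.987, 0.959 and 0.957 in that order.

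The swing was not seen in all strong A549 tags. Of 494 eligible tags with an a of 3 to under 6, 319 were members, 94 had an h under 0.5 and 81 had an h of 0.5 or more with an a minus h under 1. An SD over the A549 libraries of 0.5 or more was found in 317 of the 319 members, in 4 of the 94 tags that were low in H520 and in 1 of the 81 tags of similar activity in both lines. Among the 68 tags with an a of 6 or more, 63 had it. The mean activity of the 94 tags in A549 was 5.24, 5.36, 5.06, 5.31 and 4.92 with BaP and 5.43, 5.08, 5.03, 5.31 and 5.10 with DMSO. That of the 81 tags was 3.69, 3.70, 3.40, 3.50 and 3.23 with BaP and 3.62, 3.58, 3.61, 3.58 and 3.41 with DMSO. In both of these sets the BaP 5 library was the lowest, while among the members it was the highest. The tags with an a of 6 or more stood at 6.25, 6.51, 7.35, 7.77 and 8.03 with BaP and 7.36, 6.34, 6.23, 7.44 and 7.82 with DMSO, and there too BaP 5 was the highest. The difference in spread between these sets was not tested, since they were sorted by values from the same libraries.

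Library totals stood as follows beside the swing. The shallowest A549 libraries, BaP 2 with 177592385 counts and DMSO 2 with 204590893, were both among the low ones, as were BaP 1 with 242629283 and DMSO 3 with 306841044. Among the other 6, DMSO 4 held 211455616 counts, BaP 4 248155942, BaP 5 282231110, DMSO 1 284545406, BaP 3 308288027 and DMSO 5 349886217. The totals of the low libraries thus overlapped with those of the rest, and the part of depth in the swing was not tested.

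In H520 the members also moved together, over a smaller range. Their mean activity was 1.45, 1.65, 1.76, 1.76 and 1.53 in BaP transfections 1 to 5 and 1.48, 1.68, 1.76, 1.89 and 1.60 in DMSO transfections 1 to 5, a span of 1.36-fold. Transfection 1 was the lowest in both treatments, and the treatments overlapped. A single component carried 81.5% of the variation, and 171 of 319 members followed the mean course with an r over 0.9. DMSO 4 was the highest H520 library for 254 of 319 members (6.27% of all eligible tags), and BaP 1 the lowest for 162 (13.9%). The median SD of a member over the H520 libraries was 0.16, against 0.10 over all eligible tags. The 94 tags that were low in H520 spanned 1.03-fold and the 81 tags of similar activity 1.12-fold, while those with an a of 6 or more spanned 1.63-fold.

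The inputs of both lines differed for these tags. The log2 ratio of the A549 input to the H520 input had a median of 0.79 over the members, or 1.73-fold, and was above 0 in 318 of 319. Over all eligible tags the median was -0.01 and 48.7% were above 0. It was 0.92 for the 94 tags low in H520 and 0.14 for the 81 tags of similar activity. The H520 input is the denominator of the rule, which favours tags that are low in it, so these values are a description. Across the members the ratio correlated with a at a Pearson r of 0.80 and with a minus h at 0.54, values that share the H520 input. The ratio was largest among the named members in CTTCGTTACTCGggc, at 2.04 on the log2 scale.

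Activity in A549 was therefore lower when read against the A549 input. The median a was 3.51 against the A549 input and 4.15 against the H520 input, and the median line difference was 1.78 in place of 2.47. The highest a on this scale was 4.34, in GATGACCCGCATggc. It was 4.28 for CCGCCGATACTTggc, 4.17 for CTTCGTTACTCGggc and 4.26 for TTACCGCCAAAGggc. By this reading 213 of the 319 members (66.8%) still met the rule. Of the 106 that did not, 91 had an a under 3 and 16 an a minus h under 1, with 1 tag in both counts. Each input was a single library, so the spread between inputs of a line is not known.

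Each limit of the rule had tags close to it on both sides. Just inside an a of 3 were ACTCCTCGTAAGggc at 3.001 and CATTACGATGCTggc at 3.01, and just outside AGTTTAGCTCGTggc and CATAACCGCCAGggc, both at 2.997 or 2.996. Just under an a of 6 were CCGCCGATACTTggc at 5.999 and CTTCGTTACTCGggc at 5.994, and just above it ACCGCGAATTAGggc at 6.01 and AGTCGGACGATTggc at 6.05. At the limit for h, TTGCTATAAGTTggc (0.504) and GTTAGCTAACCAggc (0.517) were inside and GTACCGTATATTggc (0.478) and CTATAGTATTTCggc (0.469) outside. For a minus h, GTTCGAATGAACggc (1.01) and GAACGACGTTCAggc (1.20) were inside and CGGCTTACGTAAggc (0.912) and GGGTCATCGGGTggc (0.858) outside. Tags were sparse at this last limit, with 5 members under 1.5. They were also sparse just below the limit for h. Of the 94 tags with an h under 0.5, 7 had an h above 0. The 89 members with an a of 3 to 3.5 lay nearer to the lower limit for a than 0.75, the median SD over single A549 libraries. Since a is a mean over these libraries, that SD is not the error of a. Leaving out a transfection number of A549 kept 279 to 314 of the 319 members within the rule.

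Treatment did not enter the rule, so BaP could be tested. The question was whether exposure changed these reporters in either line. In A549 no member was called. edgeR's quasi-likelihood test on all 223066 tags with at least 10 input counts called 0 members and 0 tags in all (0% of tags), and DESeq2 also called 0. At an unadjusted p under 0.05 there were 0 of 319 members in edgeR and in DESeq2, where 2.60% of all tags passed in edgeR. The median log2 fold change of BaP over DMSO was 0.23 over the members and -0.00131 over all tags. Its standard error had a median of 0.48 over the members, against 0.081 over all tags, so a change of this size was not detectable over the swing between libraries.

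The members' signs were not separate observations. The log2 fold change was positive for 318 of 319 members (49.3% of all tags), but without BaP transfection 5 the median was -0.03 and 52 were positive. It was 0.07 without DMSO transfection 2, 0.12 without DMSO transfection 3, 0.15 without BaP transfection 3 and 0.15 without BaP transfection 4. It was 0.46 without DMSO transfection 5, 0.44 without BaP transfection 1 and 0.40 without BaP transfection 2. Between same-numbered libraries, the mean of the members with BaP minus DMSO was -1.18, 0.15, 1.10, 0.29 and 0.29 in transfections 1 to 5. BaP was higher in 0, 288, 318, 317 and 318 of 319 members, in that order. The values of largest size, of opposite sign, were thus those of transfections 1 and 3. In these the deviations of the libraries from their group mean correlated at 0.013 and -0.015 over all eligible tags. In transfections 2, 4 and 5 they correlated at 0.316, 0.398 and 0.493. The 3 members of smallest p in A549 were AGGCTTATTGACggc, GCTGACGATGGCggc and CTCGAACGTCTAggc, with log2 fold changes of 0.32 (SE 0.49), 0.27 (SE 0.43) and 0.30 (SE 0.49) and unadjusted p-values of 0.534, 0.546 and 0.557 in edgeR, none of them past the threshold after adjustment. For AGGCTTATTGACggc the TPM was 14.2, 18.2, 41.5, 43.5 and 53.6 with BaP and 32.2, 15.4, 16.9, 32.6 and 42.8 with DMSO, which overlap.

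In H520, where libraries differed less, the fitted differences were small. edgeR called 0 members and 0 of 223732 tags (0% of tags), and DESeq2, which gave an adjusted p for 217 of the members, called 0 of these. Over all 19911 tags with an adjusted p, DESeq2 called 5 higher and 6 lower. At an unadjusted p under 0.05, edgeR had 14 of 319 members (4.39%), against 4.71% of all tags, and DESeq2 had 11 members and 11315 tags in all. All 14 were lower with BaP. These fits had no block for the transfection number. With that block edgeR called 7 members, all lower with BaP, where it called 0.0670% of all tags. At an unadjusted p under 0.05 it then had 99 of 319 members, against 6.15% of all tags. The labels do not say that the numbers mark pairs. In the fits with no block, the count at that p ran from 7 without BaP transfection 5 to 54 without DMSO transfection 1. It was 31 without BaP transfection 3, 22 without BaP transfection 4 and 8 without DMSO transfection 3. The median log2 fold change over the members was -0.05, and 43 of 319 were positive (50.0% of all tags). Without DMSO transfection 4 the median was 0.01 with 170 positive, and without BaP transfection 1 it was -0.01 with 149 positive. It was -0.10 without DMSO transfection 1, -0.10 without BaP transfection 3 and -0.09 without BaP transfection 4. It was -0.03 both without DMSO transfection 3 and without BaP transfection 5.

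The H520 member of smallest p was ACGATGAATCTTggc. Its TPM in H520 was 14.0, 16.9, 16.4, 15.9 and 15.1 with BaP and 16.1, 17.8, 18.0, 20.2 and 16.6 with DMSO. The BaP values lay lower on the whole but overlapped with DMSO. The log2 fold change of -0.18 (SE 0.05, unadjusted p = 0.00184, adjusted p = 0.998 in edgeR) did not pass the test without the block. This tag was lower with BaP in all 5 same-numbered pairs, and it was among the 7 members called with the block. CCATAGAATCTTggc (-0.16) and GAGTCCGAGACGggc (-0.15) came next, also with an adjusted p of 0.998 in edgeR.

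The response to BaP was also compared between the lines, with the limit that line and exposure time cannot be told apart. The interaction in edgeR, the log2 fold change in A549 minus that in H520, called 0 of 319 members and 0 of 222669 tags (0% of tags), and DESeq2 called 0. At an unadjusted p under 0.05 there were 0 members in either tool, against 3.45% of all tags in edgeR. The median difference was 0.29 over the members, with a median standard error of 0.50. It moved with single A549 libraries. Without BaP transfection 5 it was 0.02, with 206 of 319 members positive in place of 318. It was 0.13 without DMSO transfection 2 and 0.17 without DMSO transfection 3. It was 0.50 without BaP transfection 1, 0.46 without BaP transfection 2 and 0.52 without DMSO transfection 5. The smallest p-values were those of GTATACTTGCCCggc at 0.42, TACGGCGTTCCGggc at 0.34 and GAGTCCGAGACGggc at 0.35 on the log2 scale, with unadjusted p-values of 0.365, 0.396 and 0.413 in edgeR, none of them past the threshold after adjustment.

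The base makeup of the members was close to that of the eligible tags. The 12 variable bases held 47.6% G or C on average in the members and 47.7% in all eligible tags, with 2 to 10 such bases in both. The largest departure of a base at a position was A at position 3, counted from the first base printed, in 32.3% of members and 25.9% of eligible tags. T at position 11 (30.7% and 25.9%) and A at position 10 (32.0% and 27.2%) came next. The search for 7 motifs covered both strands of the 15 bases, the constant ones included. ATTAAA, a variant of the polyadenylation signal, was in 1 member, CGTTTAATGAAAggc, and in 0.498% of eligible tags. In this member it lies on the strand opposite to the printed run. GCGTG, the core of the xenobiotic response element, was in 1 member, AGCTATAAGCGTggc, where it uses the first constant base, and in 0.568% of eligible tags. GGGCGG, the GC box, was in 1 member, AGCGCGATGGGCggc, where it also uses constant bases, and in 0.304% of eligible tags. TGANTCA, the AP-1 site, was in 0 members and in 0.0624% of eligible tags. AATAAA, the main polyadenylation signal, was in 0 eligible tags. CACGTG, the E-box, was in 0 of them as well, and so was TGACGTCA, the cAMP response element.

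Of the pairs of members, 0 were a single mismatch apart, and 7 of the 50721 pairs differed at 2 positions. The median pair of members differed at 9 of the 12 positions. Tags close in sequence were not always close in activity. CAATCGCGATTGggc, with an a of 3.59 and an h of 1.26, and GACTCGCGATTGggc, with 5.26 and 3.25, differ at 2 bases, as do TACGAATCCGGTggc, at 5.32 and 1.12, and TACGATTCGGGTggc, at 5.69 and 2.64. CTCGAACGGTTAggc and CTCGAACGTCTAggc were closer, at 3.08 and 3.31 in A549 and 1.10 and 1.07 in H520. These pairs were chosen after the values were seen.

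Tags that resemble a member in sequence were at the level of the pool. Of the 319 members, 310 (97.2%) had an eligible tag at 1 mismatch, as did 97.9% of all eligible tags. The 1240 tags at 1 mismatch from a member had a median a of 0.03, against -0.00193 for all eligible tags, and 20 of them (1.61%) had an a of 1 or more, against 1.80% of all eligible tags. Their median SD over the A549 libraries was 0.107, against 0.103 for all eligible tags.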

How the data were processed

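Per the labels' protocols, polyadenylated RNA of transfected cells was copied into cDNA and a stretch holding the tag was amplified; 1 input library of construct DNA was made for each line. The submitters' processing notes name bcl2fastq, and the sources used here do not give how reads were matched to tags. In each library, per the file headers, the authors deposited a raw count per tag, the total count of the library and a TPM value, which is the count scaled to that total, with no length term. A tag missing from a file was taken as 0. The deposited counts add up to the total in all 22 libraries. Replicate libraries of a group differed beyond sampling noise, with a chi-square of 3.72 to 90.4 per degree of freedom.

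BaP was compared with DMSO by edgeR 4.0.16's quasi-likelihood test (TMM, filterByExpr, robust) on the counts of every tag with at least 10 input counts in the line, or in both inputs for the interaction. P-values were adjusted by Benjamini-Hochberg over all tags tested, at a threshold of 0.05, and DESeq2 1.42.0 was the alternative. All 319 members passed the filters. The standard errors given with edgeR were derived from the test, as the log2 fold change without its sign over the square root of the F statistic. The fits of each line were also run on simulated counts. These drew each tag separately and so lacked the shared course of the members over libraries. The simulation therefore does not show how the fits behave for the members. Same-numbered libraries did not meet the rule for pairs, since their deviations over all eligible tags did not all correlate over 0.1. In A549 they correlated at 0.316, 0.398 and 0.493 in transfections 2, 4 and 5, and at 0.013 and -0.015 in transfections 1 and 3. In H520 they correlated at 0.044 to 0.159, with 1 of 5 over 0.1, though all 5 BaP libraries correlated best with their own number. The main fits thus had no pairing, and a fit with the transfection number as a block was an alternative. Named tags were the extremes in a, h, a minus h and spread among members whose count was 500 or more in each input, the deepest members, those nearest each limit and the 3 of smallest p in each test. The members, limits and lists were chosen with earlier results of these data known. The alternatives varied the denominator, pseudocount, depth minimum, centring, scaling, filter, block and the libraries included.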

Additional observations from a re-analysis of the deposited data

How the results depend on the processing

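Each member had at least 100 counts in each input, and each input is a single library. The number of tags meeting the rule was 223 with each line's own input, 261 with the A549 input for both, 327 with the mean of both inputs, 372 and 289 with pseudocounts of 0.1 and 1 TPM, 321 and 284 with input minimums of 10 and 500, 276 without centring, 337 on BaP libraries alone and 305 on DMSO libraries alone. Leaving out a transfection number of a line gave 281 to 361. These counts include tags that were not members. Of the 319 members, 213 met the rule with each line's own input. With the A549 input for both lines 197 (61.8%) did, and with the mean of both inputs 263 (82.4%). The pseudocounts, input minimums, lack of centring and single treatments kept 274 to 317 of the members. Leaving out a transfection number kept 279 to 318. With the A549 input as denominator, the mean activity of the members was 3.35 in A549 with DMSO, 0.868 in H520 with BaP and 0.918 in H520 with DMSO, each moved by more than the SD between transfections. In A549 with BaP it was 3.48. Pseudocounts, centring and, added after seeing the data, the mean of both inputs in A549 moved these means by less than that SD. Leaving out a transfection gave 4.01 to 4.52 in A549 with BaP, 3.92 to 4.30 in A549 with DMSO, 1.60 to 1.68 in H520 with BaP and 1.63 to 1.73 in H520 with DMSO.

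Members called for BaP stayed at 0 in both lines and in the interaction under every scaling, filter and left-out library run. The exception was the fit with the transfection number as a block in H520, which called 7 members, all lower with BaP, where it called 0.0670% of all tags in either direction and 0.0286% of all tags as lower. At an unadjusted p under 0.05 it had 99 of 319 members, against 6.15% of all tags, where the fit without it had 14. ACGATGAATCTTggc, among the 7, was lower with BaP in all 5 same-numbered H520 pairs. The labels do not say that the numbers mark pairs, although all 5 H520 BaP libraries correlated best with their own number over eligible tags. Over the members alone the same-numbered deviations correlated at 0.209 to 0.523 in H520 and at 0.486 to 0.804 in A549. There, BaP transfection 5 in H520 and BaP transfection 1 in A549 did not correlate best with their own number. The block left 0 members called in A549 and in the interaction. The median log2 fold change of the members in A549 was 0.14 with the block and ran from -0.03 to 0.46 on leaving out a library. The median interaction was 0.20 with the block and ran from 0.02 to 0.52. In H520 the median was -0.05 with the block and ran from -0.10 to 0.01. The cause of these changes was not tested.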
